A study of Mus musculus with 2 samples.

Results

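The miR-23, miR-24 and miR-27 miRNAs are made from 2 gene clusters of the mouse genome, miR-23a27a24-2 and miR-23b27b24-1. Their signal was examined in exosomes of LLC cells, a mouse Lewis lung carcinoma line. The members were 9 named mature miRNAs among the 1881 mouse miRNAs on the array. They were chosen by name, with earlier results of these data known, and all 9 had probes on both arrays. Exosomes, the small vesicles that cells release into their medium, were pelleted by ultracentrifugation from the supernatant of LLC cells kept in medium with exosome-free serum. Their RNA was read on Agilent mouse miRNA microarrays with Cy3 as the only dye. The sample labels describe a blood RNA kit, removal of globin message and Cy3 labelling of amplified cRNA, which are steps for mRNA, so how the RNA on these miRNA arrays was extracted and labelled is not settled by the sources used here, and its part in the intensities was not tested. Both arrays belonged to 1 group, untreated LLC-derived exosomes, with 1 array for each of 2 independent experiments, so no difference between groups could be tested and no p-value was computed. No array of the LLC cells themselves, of culture medium or of exosomes from other cells was analysed here, so a level in exosomes cannot be told apart from a level in the cells that released them.

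A miRNA hairpin is cut into a duplex with a 5p and a 3p arm. The guide strand is loaded into the silencing complex, where its seed, bases 2 to 8, pairs with target mRNAs, and the passenger strand is mostly degraded. In both clusters, 1 primary transcript carries a miR-23, a miR-27 and a miR-24 hairpin, and the 3p arms are the guides. The clusters are known from blood vessel endothelium, from blood and bone cell differentiation and from cancer cells. miR-27 is known to restrain the formation of fat cells, miR-24 to act on cell cycle genes, and miR-23a to act on glutaminase, an enzyme of glutamine metabolism.

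The mature sequences show how the members are related. Here mmu- stands for mouse. They are RefSeq sequences of GRCm38.p6, written 5′ to 3′ with the seed in capitals, and 8 of the 9 members matched an entry. miR-23b-3p is named only.
mmu-miR-23a-3p: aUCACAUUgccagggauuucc
mmu-miR-27a-3p: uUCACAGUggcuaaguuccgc
mmu-miR-27b-3p: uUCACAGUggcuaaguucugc
mmu-miR-24-3p: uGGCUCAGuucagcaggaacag
mmu-miR-23a-5p: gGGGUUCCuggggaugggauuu
mmu-miR-27a-5p: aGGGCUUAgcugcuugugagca
mmu-miR-24-2-5p: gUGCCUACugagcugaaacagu
mmu-miR-24-1-5p: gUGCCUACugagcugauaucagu

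Counted from the 5′ end, miR-27a-3p and miR-27b-3p share their seed and differ by 1 substitution, C19U. The seeds of miR-23a-3p and miR-27a-3p differ by U7G alone. The same miR-24-3p is cut from both clusters, so its probes read the sum of both. The passenger strands miR-24-2-5p and miR-24-1-5p share their first 16 bases. Among the RefSeq entries, no other mature miRNA had the seed of miR-23a-3p or the seed that both miR-27 guides share. As miR-23b-3p had no entry, whether it shares the seed of miR-23a-3p could not be read from them. miR-24-3p shared its seed with miR-5124b, miR-6369, miR-6410 and miR-6413. The seed of miR-128-3p, a miRNA abundant in brain, lies at bases 3 to 9 of miR-27a-3p. None of these 5 other miRNAs was called detected on both arrays.

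The cluster miR-23a27a24-2 lies on the plus strand at chr8:84208518-84208921 of GRCm38.p6, a span of 404 bases that no other annotated gene contains, 2021 bases from the protein-coding gene *Zswim4*. The mature miR-23a-3p is at chr8:84208563-84208583 and miR-27a-3p at chr8:84208727-84208747. The cluster miR-23b27b24-1 lies on the plus strand at chr13:63300484-63301275, a span of 792 bases within *Aopep*, which codes for an aminopeptidase. The mature miR-27b-3p is at chr13:63300760-63300780. At both loci the miR-24 hairpin overlaps a hairpin of miR-3074 on the opposite strand. Their 3 mature miRNAs, miR-3074-5p, miR-3074-1-3p and miR-3074-2-3p, were detected on neither array, with mean intensities from -1.88 to 0.12.

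Signals are given as background-subtracted fluorescence intensity in arbitrary units, as deposited. Each miRNA had 30 spots on an array, divided over 2 or 4 probes. Feature Extraction, the scanner software, called 216 of the 1881 miRNAs detected on both arrays, which was 11.5%. On each array, 1000 negative control spots showed the background. After outlier spots were left out, they had a mean of 0.57 ± 2.48 in replicate 1 and 0.76 ± 2.72 in replicate 2 (SD over spots), and the highest was 9.45 and 9.35. A miRNA spot is flagged positive and significant when it exceeds its local background by the test of the software, and 18.7% and 21.1% of the negative control spots carried that flag as well. A stricter flag, well above background, was carried by 0.1% of them on each array. These shares count all 1000 spots, whereas the highest negative control spot is always that of the spots kept after outliers were left out.

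Of the 9 members, 1 was called detected, miR-23a-3p, on both arrays. The background share for that call is 11.5% of all miRNAs on both arrays, 13.5% in replicate 1 and 11.9% in replicate 2, so 1 of 9 is near what the whole array gave. The remaining 4 guide strands and all 4 passenger strands were called detected on neither array.

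miR-23a-3p, the first guide of the miR-23a cluster, was read by 2 probes with 15 spots each. Its brighter probe, A_54_P4383, had a mean of 17.8 ± 3.13 in replicate 1 and 16.0 ± 2.57 in replicate 2 (SD over 15 spots). Its spots lay between 13.0 and 22.3 on the first array and between 11.7 and 20.3 on the second. Every one of these 30 spots was above the highest negative control spot kept on its array, and 12 of 15 and 10 of 15 were well above background.

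The other probe of miR-23a-3p, A_54_P1311, was dimmer on both arrays, with means of 5.02 ± 2.82 over 15 spots and 4.06 ± 1.84 over 14. Its total signal was 1.65 and 1.32 times its error, below the 3 times that marks a detected probe, against 5.10 and 4.63 times for the brighter probe. The detection of miR-23a-3p thus rested on 1 of its 2 probes, and the spots of the probes overlapped on neither array. The probes differed by 2.06 in replicate 1 and 2.13 in replicate 2 on the log2 scale. Of the 186 detected miRNAs with 2 probes, 16.7% had a larger difference, the median difference was 0.46, and 35, or 18.8%, likewise had only 1 of 2 probes detected on each array.

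**Figure D1:**
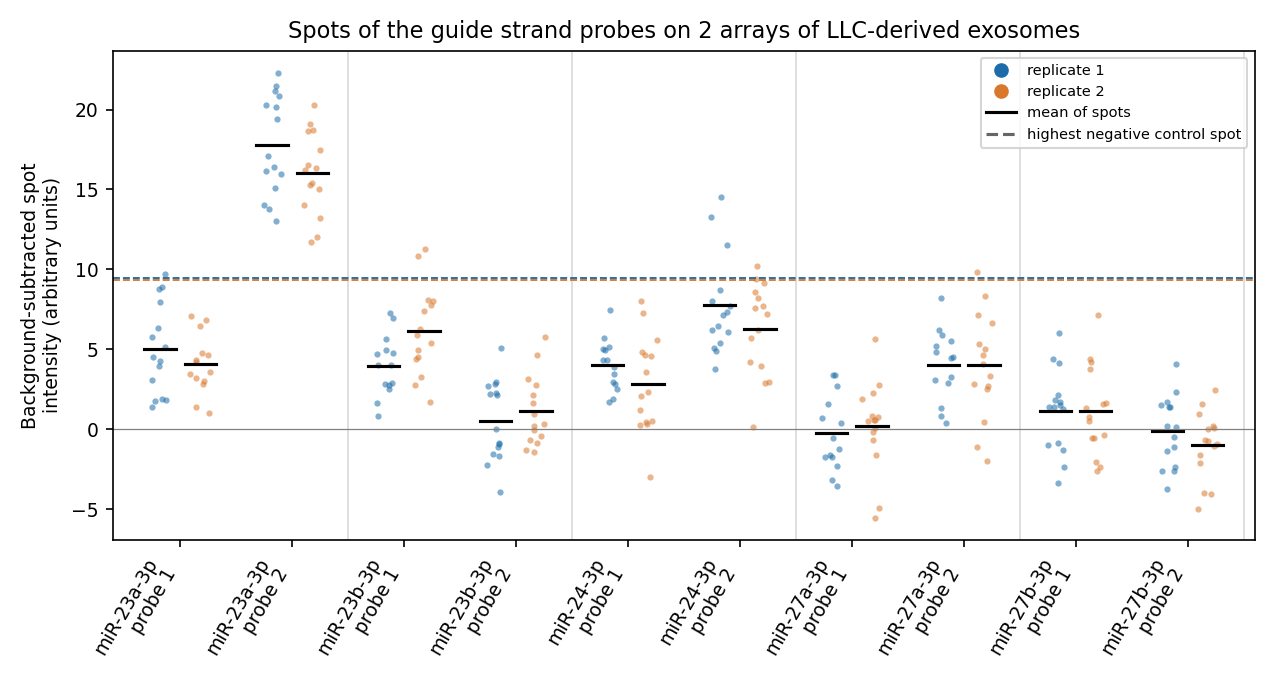
Background-subtracted intensity of each spot (vertical axis, arbitrary units) for the 2 probes of each of the 5 guide strands (horizontal axis), with replicate 1 in blue and replicate 2 in orange. Black bars are means of spots. Dashed lines are the highest negative control spot of each array after outlier spots were left out, 9.45 and 9.35. Only the second probe of miR-23a-3p had all its spots above the lines on both arrays.

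To set the arrays on 1 scale, signals were divided by the 75th percentile of the probes detected on both arrays, 50.2 in replicate 1 and 40.0 in replicate 2, and a level is the log2 of that ratio, averaged over spots and then over probes. The level of miR-23a-3p was -2.54 in replicate 1 and -2.40 in replicate 2, with a mean of -2.47 ± 0.10 (SD, n = 2 arrays). It was therefore among the dimmer detected miRNAs, at rank 186 of 216 by level. The arrays taken singly gave ranks 186 and 185, and the rank was 137 when each miRNA was ranked by the mean intensity of its brightest probe. The arrays differed by 0.14 for miR-23a-3p, whereas the median difference without sign over the 216 miRNAs was 0.35. The detected miRNAs nearest to it over both arrays were miR-7052-3p, with a level of -2.61 ± 0.10, and miR-7216-5p, with -2.32 ± 0.00403 (SD, n = 2 arrays).

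The total signal that Feature Extraction gave for miR-23a-3p was 21.0 in replicate 1 and 26.7 in replicate 2. The total of its own detected probe was 3.78 and 3.39. The total per miRNA was thus 5.55 and 7.87 times as high as that of the probe, and it put replicate 2 above replicate 1, whereas the probe total put replicate 1 above replicate 2. The excess was 17.2 and 23.3, and it differed from the total of miR-21a-5p on the same array by 5e-05 and 2e-05. Of the detected miRNAs, 60 in replicate 1 and 65 in replicate 2 had a total more than 1% above the sum of their own detected probes. The levels above were therefore taken from the spots.

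miR-24-3p, the guide that both clusters make, had the next highest intensity of the members but missed the detection call. Its brighter probe, A_54_P1144, had means of 7.75 ± 3.11 and 6.29 ± 2.89 (SD over 15 spots). Its total was 2.49 and 2.01 times its error, below the threshold of 3. Its dimmest spots had 3.75 and 0.15 and its brightest 14.5 and 10.2, and 3 and 2 of the 15 spots lay above the highest negative control spot. All 15 spots in replicate 1 and 12 in replicate 2 were positive and significant. The second probe had means of 4.02 ± 1.6 over 14 spots and 2.86 ± 2.996 over 15, with 11 and 7 of 15 spots positive and significant. Over both probes, 86.7% and 63.3% of its 30 spots carried this flag, against 18.7% and 21.1% of the negative control spots.

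miR-23b-3p, the paralog of miR-23a-3p in the other cluster, also had 1 brighter probe. Its means were 3.99 ± 1.89 over 14 spots in replicate 1 and 6.18 ± 2.76 over 15 spots in replicate 2. Of its 15 spots, 9 and 13 were positive and significant. Above the highest negative control spot lay 0 of them in replicate 1 and 2 in replicate 2, and 0 were well above background. The other probe had 0 spots above the highest negative control spot on either array, with means of 0.54 and 1.14. On the mean of both probes, miR-23b-3p had 2.27 and 3.66, against 11.4 and 10.03 for miR-23a-3p.

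miR-27a-3p, the second guide of the miR-23a cluster, followed the same pattern. Its brighter probe had means of 4.05 ± 2.22 over 14 spots and 4.0 ± 3.31 over 15, with 10 and 9 of 15 spots positive and significant. The other probe had means of -0.25 and 0.21. miR-27b-3p differed from it by the 1 base given above, and its probes had means of 1.15 and 1.13 for the brighter and -0.09 and -0.98 for the dimmer. For miR-27b-3p, 13.3% of the spots were positive and significant on each array, which was below the share of the negative control spots.

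A weaker call took a miRNA as present on both arrays if the positive and significant flag was set on 50% or more of the spots of a probe, and with it 4 of the 9 members passed. They were miR-23a-3p, miR-24-3p, miR-23b-3p and miR-27a-3p, so 4 of the 5 guide strands and 0 of the 4 passenger strands. The background share for this weaker call is 25.2% of all miRNAs on both arrays, 29.8% in replicate 1 and 28% in replicate 2. By probe, 6 of the 10 guide probes passed it in replicate 1 and 5 in replicate 2. Of the 12 passenger probes, 1 passed in replicate 1, a probe of miR-23a-5p, and 0 in replicate 2. Over all 4415 probes, 19.8% passed on both arrays, which asks for more than passing on 1 array. With the call of at least 50% of spots well above background, miR-23a-3p was the only member that passed, against 7.07% of all miRNAs on both arrays, 9.09% in replicate 1 and 7.44% in replicate 2. No member passed when each of its probes had to be detected on both arrays, against 7.5% of all miRNAs on both arrays, 9.52% in replicate 1 and 7.66% in replicate 2. Of the 22 probes of the members, 1 was detected, against 8.9% of all probes on both arrays.

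**Figure D2:**
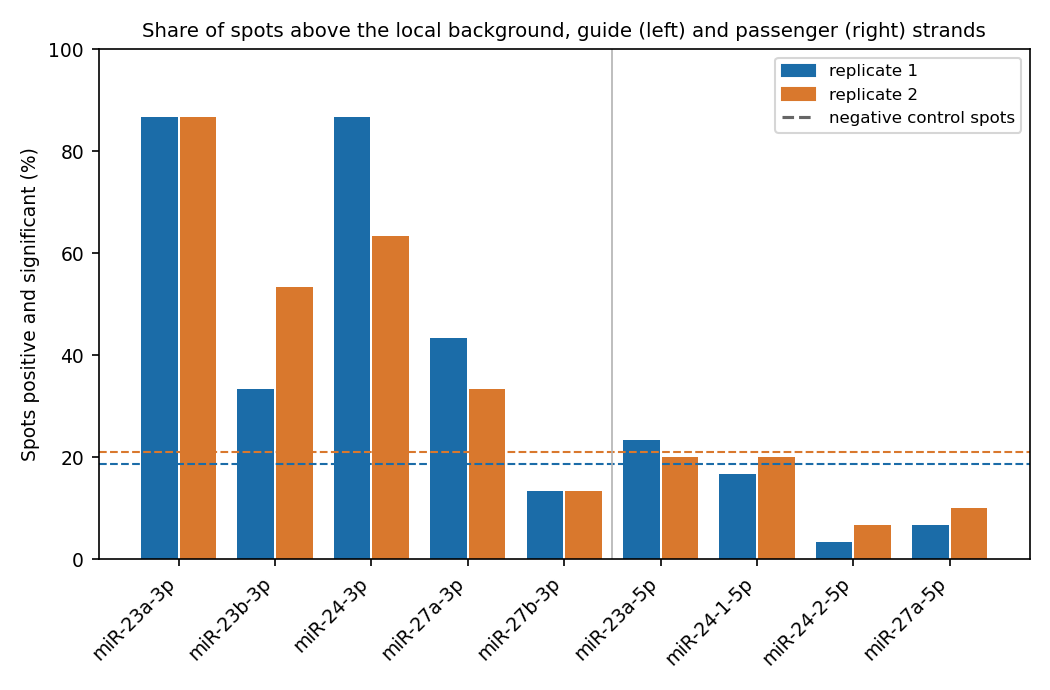
Percentage of the 30 spots of each member that were positive and significant (vertical axis) in replicate 1 (blue) and replicate 2 (orange), with guide strands left and passenger strands right of the line. Dashed lines are the shares of the negative control spots, 18.7% and 21.1%; miR-23a-3p, miR-23b-3p, miR-24-3p and miR-27a-3p lay above both lines on both arrays, and miR-23a-5p, at 23.3%, lay above its line in replicate 1 only.

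The passenger strands lay at the background. Over their 12 probes, 12.5% of 120 spots were positive and significant in replicate 1 and 14.2% in replicate 2, against 52.7% and 50% of 150 spots for the guide strands. The lowest probe means were -4.37 and -1.92 and the highest 2.94 and 2.57, and 8 and 7 of the 12 were at or below 0.

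The highest of these means on each array, 2.94 ± 3.71 and 2.57 ± 2.75 over 7 spots, belonged to 1 of the 4 probes of miR-23a-5p, the arm cut from the same hairpin as miR-23a-3p. Its total was 0.97 and 0.84 times its error. Over all 4 probes, miR-23a-5p had a mean of -0.40 in replicate 1 and -0.09 in replicate 2. miR-27a-5p had -1.45 and -1.27, and miR-24-2-5p had -1.82 and -1.6. miR-24-1-5p, from the miR-23b cluster, had 0.25 and 1.08. The remaining arms of that cluster, miR-23b-5p and miR-27b-5p, which are not among the 9 members, had means between -1.43 and -0.11 and were not detected.

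Within the transcript of miR-23a27a24-2, the order of the mean intensity was therefore the same on both arrays, with miR-23a-3p above miR-24-3p, miR-27a-3p, miR-23a-5p, miR-27a-5p and miR-24-2-5p, in that order. The mean over probes was 11.4 and 10.03 for miR-23a-3p, 5.88 and 4.57 for miR-24-3p and 1.90 and 2.11 for miR-27a-3p. Single probes did not all keep this order. The dimmer probe of miR-23a-3p, at 5.02 and 4.06, lay below the brighter probe of miR-24-3p, at 7.75 and 6.29. The 3 passenger strands were all below 0, where intensity has no order beyond the noise of the spots. Within miR-23b27b24-1, miR-23b-3p at 2.27 and 3.66 lay above miR-27b-3p at 0.53 and 0.07, with miR-24-3p shared between the clusters.

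Each probe has its own affinity for its target, and brightness therefore does not rank the strands by their abundance. Only a bound can be given for members that were not well above background. For it, the brighter probe of miR-23a-3p was set against the dimmest probe on each array that was well above background. That probe was at 13.9 in replicate 1 and 14.0 in replicate 2. On the mean log2 value over both arrays, the brighter probe of miR-23a-3p was at least 1.19-fold brighter. This is a mean over arrays and not a bound on each array. Its limit belongs to the array and not to the member. The same value therefore held for miR-24-3p, miR-27a-3p, miR-23b-3p and the passenger strands of the miR-23a cluster, and it does not tell them apart. For miR-23a-3p the log2 was averaged over spots, whereas for the limit it was taken of the probe mean. Probe sequences were not among the sources used here, so whether a probe also binds the paralog of its target could not be examined. Between paralogs, the level of miR-23a-3p exceeded that of miR-23b-3p by 4.81 ± 0.74 on the log2 scale (SD, n = 2 arrays), but by 0.17 with another background correction, normexp. The corresponding difference of miR-27a-3p, which passed the weaker call, and miR-27b-3p, which did not, was 3.39 ± 1.74, and 0.042 with normexp. With the median of the spots it was 1.48 ± 8.997, with opposite signs on the 2 arrays. These log2 values depend on how intensities at or below 0 were treated, so no fold is read from them, and the intensities above are the measurement.

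**Figure D3:**
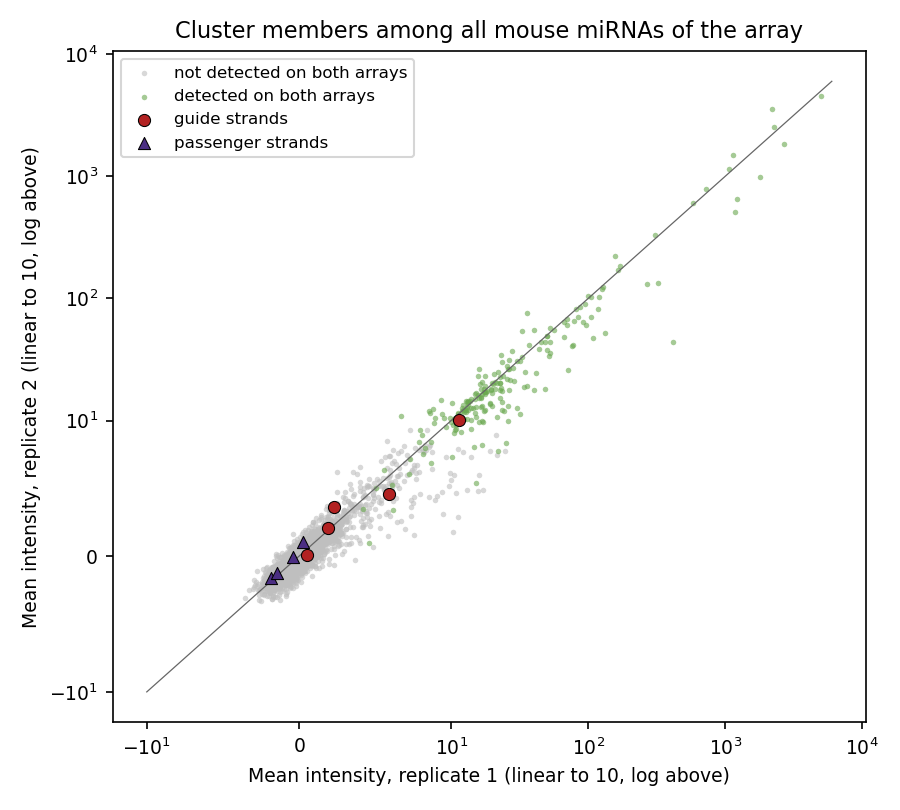
Mean intensity of each of the 1881 mouse miRNAs, averaged over probes, in replicate 1 (horizontal axis) and replicate 2 (vertical axis), both linear up to 10 and logarithmic above. Guide strands are red circles, passenger strands violet triangles and the line marks equal intensity; miR-23a-3p, at 11.4 and 10.03, is the only member among the 216 miRNAs detected on both arrays (green).

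Among all 1881 miRNAs ranked by mean intensity over both arrays, miR-23a-3p was at rank 182, miR-24-3p at 308, miR-23b-3p at 423 and miR-27a-3p at 535. miR-27b-3p was at rank 960, and the passenger strands were at ranks from 842 to 1742. Across the 22 probes of the members, the intensities on replicate 1 and replicate 2 were correlated (Pearson's r = 0.95, Spearman's rho = 0.81), and rho was 0.75 over the 20 probes left without miR-23a-3p. These correlations are across probes, which share an array, a sample and in part a target, and not across independent samples.

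In the authors' deposited log2 table, whose scale and centring are unknown, miR-23a-3p had 1.36 in replicate 1 and 2.06 in replicate 2. miR-23b-3p and miR-24-3p lay above the lowest value of the table, -3.32, in replicate 2 only, at -2.16 and -2.13. The remaining 6 members were at the lowest value in both columns, as was the median of each column.

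Among hairpins with any arm detected, 1 arm without the other was the usual pattern on these arrays. Of 723 hairpins with both a 5p and a 3p name on the array, 146 had at least 1 arm detected on both arrays, and both arms were detected for 7 of them, or 4.79%. With the weaker call, 54 of 297 hairpins, or 18.2%, had both arms. Over all miRNAs, 11.5% were detected on both arrays and 25.2% passed the weaker call. How far these low shares alone give single arms was not tested. The counts of hairpins do not tell guide from passenger strands. miR-17~92, a polycistron known from tumours, is a cluster of similar build. Of its strands, 3 of 6 guides and 0 of 6 passengers were detected on both arrays, against 11.5% of all miRNAs. The 3 detected guide strands were miR-20a-5p, miR-19b-3p and miR-92a-3p. Their intensities, averaged over probes, were 26.5 and 31.5 for miR-20a-5p, 12.6 and 12.2 for miR-19b-3p and 30.4 and 31.0 for miR-92a-3p. The difference between the clusters was not tested.

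The GC content of the 8 members with a sequence ranged from 47.6% to 59.1%, with a median of 51.2%. The median was 59.1% over the 182 detected miRNAs that had a sequence, of 216, and 52.2% over 1426 of the 1665 others. The part of GC content in the signals was not tested.

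As the labels name a blood kit, miRNAs of other cells were read as well. Of the 3 red blood cell miRNAs on the array, 0 were detected, with intensities averaged over probes between -0.54 and 4.87, and of 4 miRNAs of white blood cells and their precursors, 0 were detected, between -1.21 and 8.15. With the weaker call, 1 of each of these lists passed on both arrays, miR-486a-5p of red blood cells, at 4.87 and 4.51, and miR-223-3p of myeloid cells, at 6.92 and 8.15, which was above miR-24-3p on both arrays. miR-451a, a defining miRNA of red blood cells, had 1.85 and 1.49 and did not pass. Of 4 liver and muscle miRNAs, miR-206-3p was detected, at 27.1 and 21.4, and the remaining ones, between -1.62 and 2.55, were not. Of the miR-200 family, which marks epithelial cells, 0 of 5 were detected, between -2.17 and 0.84. Of 5 miRNAs of mesenchymal cells, miR-199a-3p and miR-214-3p were detected. miR-199a-5p, at 2.81 and 2.51, passed the weaker call only. miR-145a-5p, at -0.52 and 0.22, and miR-143-3p, at -1.70 and -1.57, passed neither. Over all 1881 miRNAs, 11.5% were detected on both arrays and 25.2% passed the weaker call, so counts from lists this short say little. The part of other cells in the signal of the miR-23a cluster was not tested.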

How the data were processed

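miRNA of LLC-derived exosomes was measured on 2 one-colour Agilent mouse miRNA arrays. The authors deposited fluorescence intensity for each spot, background-subtracted by Feature Extraction 10.7.1.1 per the file headers (the labels name 9.1) and not normalized between arrays, and a log2 table whose making is not given in the sources used here. Outlier spots were left out (1178 and 1134 of 56430), and 0 spots were saturated. Intensities were averaged over spots and probes. For levels, signals were divided by the array's 75th percentile over 393 probes (those detected on each array), anything not above 0 was raised to the array's lowest positive value, and log2 was taken. A probe was detected when its total exceeded 3 times its error. Flag shares count all spots. The number of arrays limits precision. Named miRNAs were the 9 members, 2 further arms, miR-128-3p, 2 neighbours of each detected member and the fixed lists; miR-21a-5p, the miRNAs that share the seed of miR-24-3p and the miR-3074 miRNAs were named after their values were seen. Members and lists were chosen with earlier results of these data known. Python 3.11.15 with numpy 2.4.6 and pandas 2.3.3, and R 4.3.3 with limma 3.58.1 (normexp, offset 50), were used. The code was tested on simulated data. miR-486b-5p was not among the miRNAs read. Alternatives covered detection, scaling, background, summaries, the deposited table and each replicate left out.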

Additional observations from a re-analysis of the deposited data

How the results depend on the processing

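The number of the 9 members detected on both arrays was 1, and it was 1 with the well above background call and, in an alternative added after seeing the data, with a probe mean above the highest negative control spot. It was 4 with the positive and significant call and 0 when every probe had to be detected; the former asks for less signal above background, and the latter keeps the same threshold but needs both probes of miR-23a-3p to pass it. Without either replicate it stayed at 1, a range from 1 to 1.

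The log2 difference of miR-23a-3p and miR-23b-3p, 4.81, was 1.92 with the brightest probe, 3.80 with the median of the spots, 2.14 with the mean of the spots before log2, an alternative added after seeing the data, and 0.17 with normexp. With each replicate left out it ranged from 4.28 to 5.33. The difference of miR-27a-3p and miR-27b-3p, 3.39, was 5.20 with the brightest probe, 1.48 ± 8.997 (SD over 2 arrays) with the median of the spots and 0.042 with normexp, and ranged from 2.17 to 4.62 with each replicate left out. The means kept their direction, but with the median of the spots the arrays had opposite signs for miR-27a-3p against miR-27b-3p. Other scalings left both differences as they were, which was fixed in advance, because 1 divisor per array cancels in a log2 difference within the array. Totals and detected probes alone gave no value for either difference, because the dimmer miRNA was not detected. The deposited table had both miR-23a-3p and miR-23b-3p above its lowest value in replicate 2 only, at 2.06 and -2.16, and gave no mean over arrays. Of 85 alternative values of the members' levels, 51 moved by more than the SD over the 2 arrays and 34 did not. Part of this count was fixed in advance. Leaving out 1 of 2 arrays always moves their mean by less than their SD, so those values could not count as moved. Another divisor changes the unit of every level on an array, so those moves say nothing about a member. Most of these levels belong to miRNAs at background, and were not read. The level of miR-23a-3p was -1.43 with its detected probe alone and -0.60 with normexp. No paired analysis was possible because only 1 group exists. Signal over background limits every member, including miR-23a-3p through its dimmer probe.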
